A study of Mus musculus with 8 samples.

Results

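The genes described here make, break down and read cyclic AMP (cAMP) in beta cells: receptors that couple to adenylate cyclase, the cyclases themselves, the phosphodiesterases, protein kinase A (PKA), Epac and the CREB transcription factors with their coactivators. They were listed by name, 47 of the 23100 genes in the table of counts, and all 47 were found by symbol. Levels come from 8 RNA libraries of Min6, a mouse insulinoma line with beta cell properties, collected 16 h after Lipofectamine transfection with pRK5-Zac1 (4 libraries) or with pRK5-NLSeGFP, which encodes a nuclear green fluorescent protein (4 control libraries). Zac1 is a zinc finger transcription factor encoded by the gene Plagl1, and pRK5 is an expression vector with a strong viral promoter, so Zac1 was overexpressed. Libraries are numbered 1, 2, 3 and 5 in each group. The series' design text calls the replicates biological but no label says what separates them, so p-values measure the spread between these libraries.

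In beta cells, incretin hormones such as GLP-1 and GIP bind receptors coupled to the stimulatory G protein Gs, which activates adenylate cyclases at the plasma membrane. The cAMP formed activates PKA and the exchange factor Epac, which raise glucose-stimulated insulin secretion, and phosphodiesterases end the signal by hydrolysing cAMP. PKA also phosphorylates CREB, which binds cAMP response elements (CREs) in promoters. The CRTC proteins are coactivators of CREB.

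With Zac1, 4 of the 47 genes passed the test as higher and none as lower. They were the adenylate cyclases Adcy3, Adcy5 and Adcy7 and the phosphodiesterase Pde4a, higher by 1.55-fold to 2.36-fold. All 4 had a control mean under 5 CPM, where CPM is the usual depth-scaled count. The incretin receptors, the most abundant cyclase and phosphodiesterase genes, all PKA subunits, Epac and CREB did not pass the test. The threshold was an adjusted p of 0.05 in edgeR's quasi-likelihood test over 14331 genes, and a gene past it is called. Of all tested genes 2.15% were called higher and 0.0349% lower. Over 16 alternatives (other scalings, filters and tools, or libraries left out), Adcy7 and Pde4a were called in all 16. Adcy3 was called in 12 and Adcy5 in 9. A filter on low counts left 42 of the 47 genes to test. Their median log2 fold change was 0.07, against -0.01 over all tested genes. A positive value was seen for 31 of the 42, and for 6559 of all 14331 tested genes. CPM used TMM-scaled library totals, and changes are log2 fold changes, Zac1 minus control, with their standard error (SE).

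Library totals ran from 30.5 to 42.4 M counts. Plagl1 itself had 67.7 to 85.4 CPM in the control libraries and 4119 to 5788 CPM in the Zac1 libraries (exact permutation p = 0.0286, two-sided, the smallest that 70 assignments allow), plasmid and endogenous transcripts together. All 17 beta cell markers on the list were detected and none was called; their summed level was 64975 to 82056 CPM in controls and 67467 to 75529 CPM with Zac1. Among markers of other islet cells Gcg, the glucagon gene, stood at 1432 CPM in controls, while Sst, Ppy and Hhex were each below 0.25 CPM. Summed markers of exocrine and duct cells reached at most 5.48 CPM, of mesenchymal cells 2.39 CPM and of endothelial and immune cells 9.65 CPM in any library, with Amy2a5, Prss2, Lum and Cdh5 at 0 counts in all 8. The libraries are bulk RNA of transfected cultures, so a strong change in a few cells and a small change in all cells cannot be told apart.

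Receptors came first in the pathway. Glp1r, the GLP-1 receptor, had 74.7, 97.6, 83.9 and 82.8 CPM in control libraries 1, 2, 3 and 5 and 83.9, 93.3, 92.4 and 84.1 CPM in the Zac1 libraries of the same numbers. The groups overlapped, with the highest and the lowest value both in controls, and the log2 change was 0.06 ± 0.07 (edgeR adjusted p = 0.956). Gipr, the GIP receptor, ranged from 43.2 to 66.8 CPM in controls and from 42.9 to 69.4 CPM with Zac1 (log2 0.01 ± 0.17, 95% interval -0.39 to 0.41). In both groups the library numbered 5 was the lowest for Gipr and the library numbered 1 the highest. Vipr1, a receptor for vasoactive intestinal peptide (VIP) and PACAP, stood at 98.8 ± 6.78 CPM in controls and 105.0 ± 5.88 CPM with Zac1 (mean ± SD, n = 4 per group, as below). Per kilobase of merged exon, the levels of these receptors in controls lay close together: 16.0 to 18.7 CPM per kb for Vipr1, 12.4 to 19.2 for Gipr and 12.9 to 16.8 for Glp1r, with overlapping ranges.

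Vipr2, the second VIP and PACAP receptor, was far lower, at 0.91 CPM per kb. It had 3.66, 4.29, 3.80 and 4.48 CPM in control libraries 1, 2, 3 and 5 and 4.66, 5.11, 5.30 and 5.51 CPM with Zac1. Every Zac1 library stood above every control library, but the log2 change of 0.34 ± 0.11 did not pass the test (edgeR adjusted p = 0.244). Adcyap1r1, the PACAP-selective receptor, had 20 to 27 counts per control library and 23 to 47 per Zac1 library (log2 0.34 ± 0.25, interval -0.19 to 0.86). Adra2a, the Gi-coupled alpha-2A adrenergic receptor through which adrenaline lowers cAMP, had 48.9 to 55.5 CPM in controls and 40.5 to 55.0 CPM with Zac1 (log2 -0.04 ± 0.09). The glucagon receptor Gcgr, with 12 counts over the 8 libraries, and the lipid-sensing Gpr119, with 30, were removed by the filter. None of the 6 tested receptors was called, where 2.15% of all tested genes were called higher and 0.0349% lower.

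Adenylate cyclases held 3 of the 4 called genes, out of 8 cyclases tested. Of all tested genes 2.15% were called higher. Among tested genes with a control mean under 5 CPM, as these 3 had, 7.09% were called. Adenylate cyclases differ in their regulation. Adcy1, Adcy3 and Adcy8 are stimulated by calcium and calmodulin, and Adcy5 and Adcy6 are inhibited by calcium. Adcy2, Adcy4 and Adcy7 respond to G protein beta-gamma subunits. Adcy5 had 1.17, 1.25, 0.785 and 0.491 CPM in control libraries 1, 2, 3 and 5 and 3.28, 1.99, 1.64 and 1.92 CPM in the Zac1 libraries. The groups did not overlap, and the spread was wide, with control library 5 the lowest and Zac1 library 1 the highest. The change was 2.36-fold (log2 1.24 ± 0.28, interval 0.63 to 1.85, edgeR adjusted p = 0.0363). Adcy5 lost its call without control libraries 1, 3 or 5 (edgeR adjusted p = 0.0533, 0.135 and 0.0626), without Zac1 libraries 1 or 2 (0.0853 and 0.0755). It was also lost in limma-voom (adjusted p = 0.0582) and when genes under a mean of 50 counts were left out (0.0974). Leaving out 1 library at a time gave an adjusted p of 0.0281 to 0.135, and 9 of 16 alternatives kept the call.

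Adcy3 had 1.05, 1.22, 1.32 and 1.34 CPM in control libraries 1, 2, 3 and 5 and 2.30, 1.79, 2.1 and 2.15 CPM in the Zac1 libraries. No library of the 2 groups overlapped, and Zac1 library 1 was again the highest. Its change was 1.69-fold (log2 0.76 ± 0.16, edgeR adjusted p = 0.0196). The call was lost without control libraries 1 or 2 (edgeR adjusted p = 0.0702 and 0.0630) and without Zac1 libraries 1 or 3 (0.0683 and 0.0597), within a range of 0.0227 to 0.0702 over the 8 libraries left out in turn. In GENCODE M21, 1380 exon bases of Adcy3 overlap exons of Cenpo, a centromere gene on the other strand, and the strand setting of the counting is not given in the sources used here. Reads of Adcy3 are therefore uncertain. Cenpo stood at 22.8 ± 1.33 CPM in controls and 24.4 ± 1.99 CPM with Zac1 (log2 0.10 ± 0.07, edgeR adjusted p = 0.880), and its part in the Adcy3 counts was not tested.

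Adcy7 gave the most precise difference among the called cyclases. Its levels were 4.36, 4.41, 4.02 and 5.30 CPM in control libraries 1, 2, 3 and 5 and 7.46, 6.70, 6.70 and 7.12 CPM in the Zac1 libraries. The lowest Zac1 library was above the highest control library, number 5. The change was 1.55-fold (log2 0.63 ± 0.11, edgeR adjusted p = 0.00336), and Adcy7 kept its call in all 16 alternatives, with an adjusted p of at most 0.0171.

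The other cyclases included the most abundant. Adcy6 stood at 27.1 CPM per kb in controls and Adcy9, a cyclase that is weakly sensitive to forskolin, at 9.39, followed by Adcy1 at 1.24, Adcy7 at 0.67, Adcy2 at 0.27, Adcy3 and Adcy8 at 0.20 each, and Adcy5 at 0.13. Control ranges of Adcy2 and Adcy8 overlapped, as did those of Adcy3, Adcy5 and Adcy8 with each other. Adcy6 had 180.1, 187.5, 185.6 and 181.6 CPM in control libraries 1, 2, 3 and 5 and 205.9, 201.3, 201.4 and 194.0 CPM with Zac1. The groups did not overlap, yet the difference was small, with a log2 of 0.13 ± 0.04 (interval 0.04 to 0.22), and did not pass the test (edgeR adjusted p = 0.254). An antisense gene overlaps 605 exon bases of Adcy6 in GENCODE, so its reads are uncertain as well. In all, 11 of the 47 genes, 10 of them tested, share exon bases with a gene on the other strand, among them Adcy2, Pde3a, Pde8b, Pde9a and Rapgef4, while Adcy5, Adcy7 and Pde4a share none. Log2 changes were 0.03 ± 0.06 for Adcy9, 0.08 ± 0.09 for Adcy1, 0.26 ± 0.20 for Adcy8 and 0.40 ± 0.19 for Adcy2, none past the threshold. Adcy4 had 6 counts over all 8 libraries and was not tested.

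**Figure D1:**
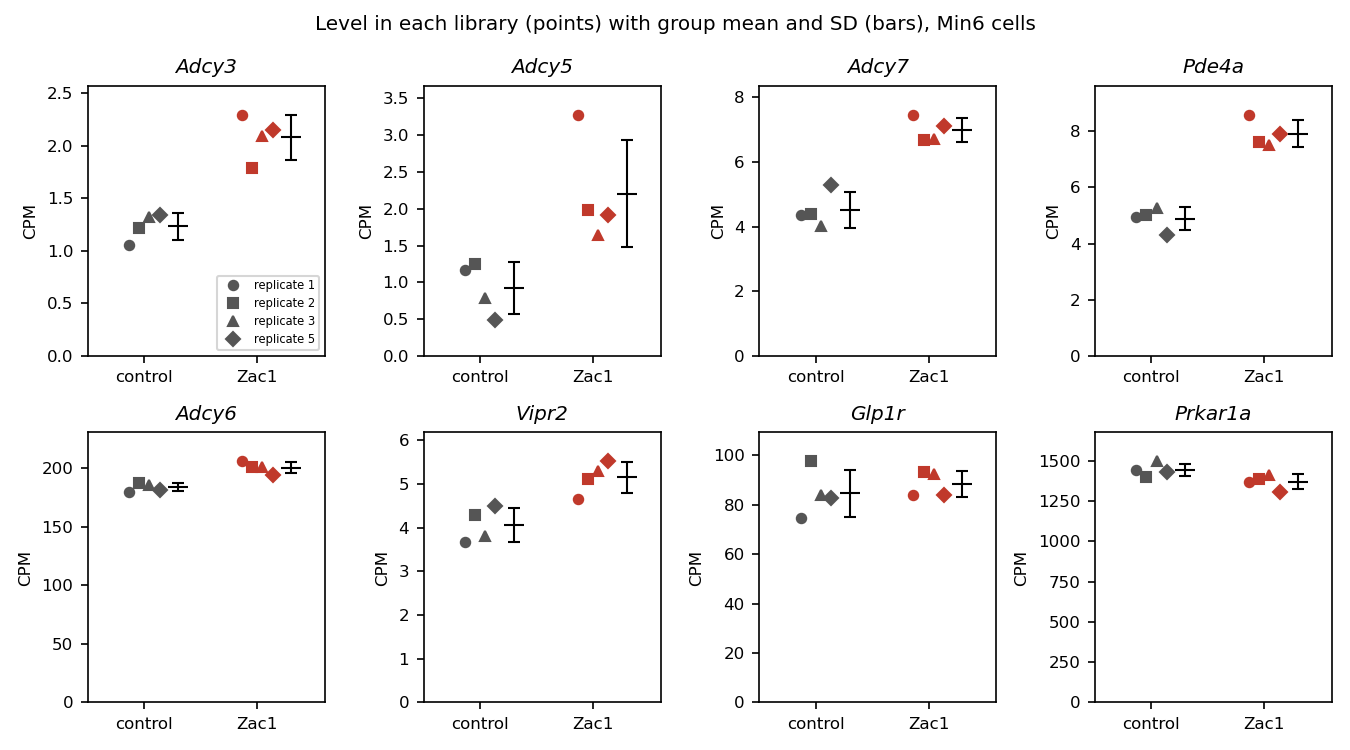
Level (CPM, linear axes from 0) of the 4 called genes and of Adcy6, Vipr2, Glp1r and Prkar1a in each control (grey) and Zac1 (red) library of Min6 cells; symbols give the replicate number, and bars the group mean and SD (n = 4). Adcy3, Adcy5, Adcy7, Pde4a, Adcy6 and Vipr2 show groups that do not overlap, while the groups of Glp1r and Prkar1a overlap.

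Phosphodiesterases held the gene with the smallest p. Pde4a, a cAMP-specific enzyme of the rolipram-sensitive PDE4 family, had 4.94, 5.00, 5.28 and 4.32 CPM in control libraries 1, 2, 3 and 5 and 8.58, 7.63, 7.52 and 7.90 CPM with Zac1. The groups stood well apart, with Zac1 library 1 the highest. The change was 1.62-fold (log2 0.69 ± 0.10, edgeR adjusted p = 0.000664), and the call was kept in all 16 alternatives (adjusted p at most 0.00334). Pde4a is a minor member of its family by level, at 0.64 CPM per kb in controls against 23.0 for Pde4b and 5.01 for Pde4d.

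Its relatives of the PDE4 family did not pass the test. Pde4b had 222.6, 244.4, 248.7 and 254.6 CPM in control libraries 1, 2, 3 and 5 and 220.8, 244.1, 232.5 and 251.6 CPM with Zac1, so the groups overlapped almost fully (log2 -0.03 ± 0.06, interval -0.15 to 0.09). Pde4d differed by 0.05 ± 0.07 and Pde4c by 0.11 ± 0.18. Among the other cAMP-specific enzymes, Pde7a gave 0.09 ± 0.05, Pde7b -0.13 ± 0.12, Pde8a 0.04 ± 0.06 and Pde8b 0.28 ± 0.15. Of these 8 cAMP-specific genes, 1 was called, where 2.15% of all tested genes were called higher.

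The enzymes that hydrolyse both cAMP and cGMP gave no call among 7 tested genes, with 0 also at an unadjusted p under 0.05, which 5.65% of all tested genes passed as higher with Zac1 and 1.93% as lower. Pde3b, the insulin-activated enzyme that lowers cAMP in beta cells, stood at 177.8 ± 8.61 CPM in controls and 179.9 ± 4.40 CPM with Zac1 (log2 0.02 ± 0.05, interval -0.08 to 0.12). Pde1c, the calcium and calmodulin-activated enzyme of insulin-secreting cells, had 304.0, 348.5, 374.7 and 405.8 CPM in control libraries 1, 2, 3 and 5 and 313.7, 372.7, 376.2 and 433.7 CPM with Zac1. The order of the replicate numbers was the same in both groups, and the spread between numbers was larger than the difference between groups (log2 0.06 ± 0.10). Pde10a gave 0.05 ± 0.07, Pde3a 0.12 ± 0.15 and Pde1b -0.23 ± 0.16, the most negative value of the 42. Pde1a (0.46 ± 0.32) and Pde2a (0.42 ± 0.27) were imprecise at 94 and 293 counts over the 8 libraries. Pde1a passed the filter through the Zac1 libraries, since only 2 control libraries were over its limit. Pde2a shares exon bases with another gene model on its strand in GENCODE, as does Prkar1b, so their reads are uncertain. Pde11a had 4 counts in all.

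The cGMP-specific enzymes were Pde5a, the sildenafil target, and Pde9a. Pde5a had 1.43 to 1.90 CPM in controls and 1.75 to 2.94 CPM with Zac1 (log2 0.42 ± 0.19, edgeR adjusted p = 0.626), with Zac1 library 1 the highest. Pde9a gave 0.23 ± 0.14. Per kilobase, the leading phosphodiesterase genes in controls were Pde4b at 23.0 CPM per kb, Pde3b at 19.5, Pde1c at 17.9, Pde10a at 11.4, Pde8a at 9.10, Pde7a at 5.74 and Pde4d at 5.01. Control ranges of Pde3b and Pde1c overlapped. All others were under 1 CPM per kb.

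**Figure D2:**
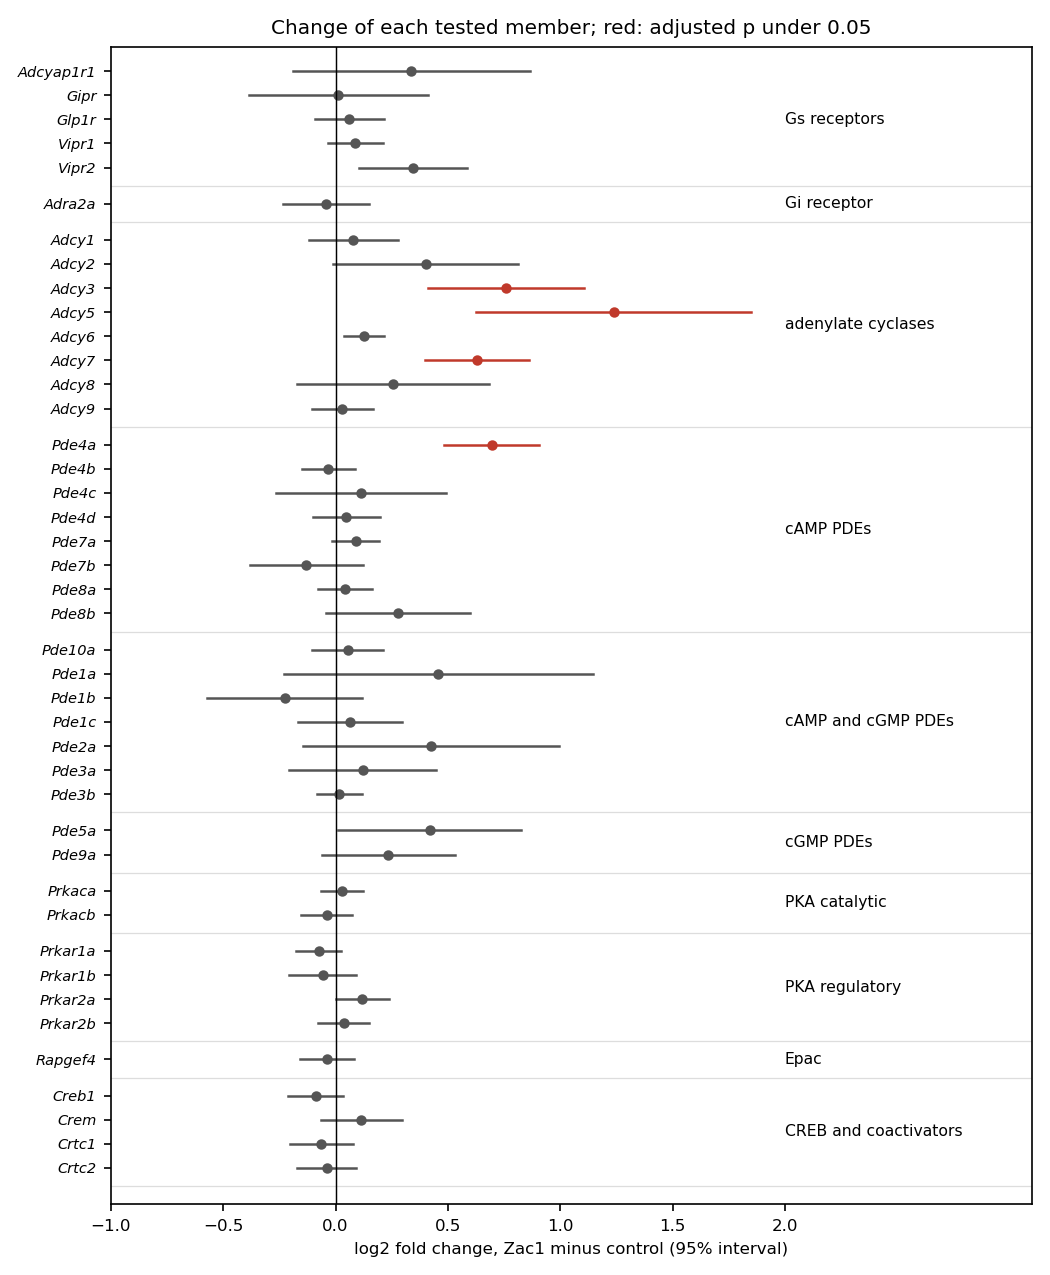
Log2 fold change (Zac1 minus control, x axis) of each of the 42 tested genes, in rows grouped by role, with 95% intervals from edgeR; red marks an adjusted p under 0.05. Adcy3, Adcy5, Adcy7 and Pde4a are marked, and the PKA, Epac and CREB rows lie near 0 with short intervals.

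Downstream of cAMP, no gene was called. Prkar1a, a regulatory subunit that holds PKA inactive until cAMP binds, was the highest of the 47 genes, at 334 CPM per kb in controls. It had 1446, 1403, 1497 and 1431 CPM in control libraries 1, 2, 3 and 5 and 1372, 1391, 1416 and 1307 CPM with Zac1. The Zac1 values lay lower on average, but the groups overlapped and the log2 change was -0.07 ± 0.05 (edgeR adjusted p = 0.840). Prkar1b, Prkar2b and Prkar2a, the other regulatory subunits, followed at 24.5, 15.5 and 5.83 CPM per kb. Prkar2a had 35.8 to 38.1 CPM in controls and 38.8 to 43.1 CPM with Zac1, with no overlap, and a log2 change of 0.12 ± 0.05 (edgeR adjusted p = 0.630). Prkar1b gave -0.06 ± 0.07 and Prkar2b 0.04 ± 0.05. The catalytic subunits Prkaca and Prkacb differed by 0.03 ± 0.04 and -0.04 ± 0.05, at 83.3 and 17.5 CPM per kb.

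Of the Epac genes, Rapgef4 (Epac2), the form of insulin-secreting cells, stood at 146.6 ± 7.32 CPM in controls and 142.8 ± 10.2 CPM with Zac1 (log2 -0.04 ± 0.06, interval -0.16 to 0.08). Rapgef3 (Epac1) had 23 counts over the 8 libraries and was not tested. Creb1 gave -0.09 ± 0.06, and the coactivators Crtc1 and Crtc2, which are held in the cytoplasm until dephosphorylated, -0.06 ± 0.07 and -0.04 ± 0.06. Crem, which also encodes the cAMP-inducible repressor ICER, had 35.9 to 36.1 CPM in control libraries 1, 2 and 3 and 40.6 CPM in control library 5, and 39.0, 36.3, 37.1 and 48.2 CPM in Zac1 libraries 1, 2, 3 and 5. The library numbered 5 was the highest in each group, and the log2 change was 0.11 ± 0.08 (edgeR adjusted p = 0.899).

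The precision of these differences depended on the level. Among the 38 genes that were not called, the 95% interval of the fold change lay within 1.5-fold in either direction for 31. The other 7 were Adcy2, Adcy8, Pde1a, Pde2a, Pde5a, Pde8b and Adcyap1r1, each with a control mean under 2 CPM. A change of 1.5-fold in these genes was therefore within the error at this depth. All 24 genes with a control mean of at least 20 CPM had intervals within 1.5-fold, from 0.765 to 1.33 at the extremes.

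The called genes shared a low level. Of the 16 tested genes with a control mean under 5 CPM 4 were called, where 7.09% of the 3809 tested genes at that level were. A positive log2 change was seen in 15 of the 16, where 57.3% of all such genes had one. The median log2 change of the 16 was 0.37, against 0.04 for all genes at that level. At 20 CPM or more none of 24 was called, where 0.186% of 7526 genes were, and the median was 0.03 against -0.02. Over all levels 7 of the 42 genes had every Zac1 library above every control library and 0 had the reverse, where 4.39% and 1.4% of all tested genes showed these patterns. At an unadjusted p under 0.05, 8 of the 42 were higher and 0 lower, against 5.65% and 1.93% of all tested genes. These shares describe genes that passed the filter and are given as a description only.

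**Figure D3:**
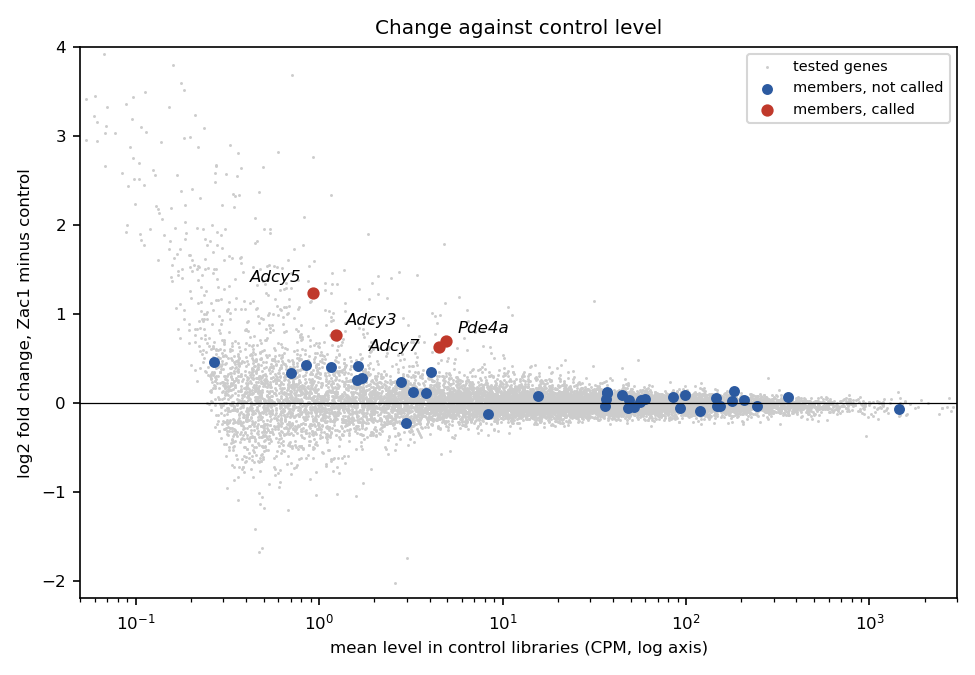
Log2 fold change (Zac1 minus control) against the mean control level (CPM, log axis) for all tested genes (grey; 52 of the 14331 lie outside the axes), uncalled members of the cAMP list (blue) and called members (red). The 4 called genes lie between 0.924 and 4.89 CPM, while the members at 20 CPM or more lie close to 0.

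Summed over each step, the adenylate cyclases together had 249.5, 268.3, 256.3 and 256.0 CPM in control libraries 1, 2, 3 and 5 and 287.3, 285.0, 282.2 and 272.2 CPM with Zac1. No Zac1 library overlapped the controls in this sum, and the ratio of the means was 1.09. Most of the difference in CPM came from Adcy6, with means of 183.7 and 200.7 CPM, which did not pass the test. The 18 phosphodiesterase genes summed to 997 to 1189 CPM in controls and 1028 to 1223 CPM with Zac1 (ratio 1.03). The ranges overlapped, although control library 1 lay below every Zac1 library and Zac1 library 5 above every control library. Sums of the regulatory subunits of PKA had a ratio of 0.956, of Epac 0.974, of CREB and its coactivators 0.970 and of the Gs-coupled receptors 1.05. The catalytic subunits summed to 360.5 CPM in controls and 360.4 CPM with Zac1. These sums are not corrected for gene length and carry no test.

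**Figure D4:**
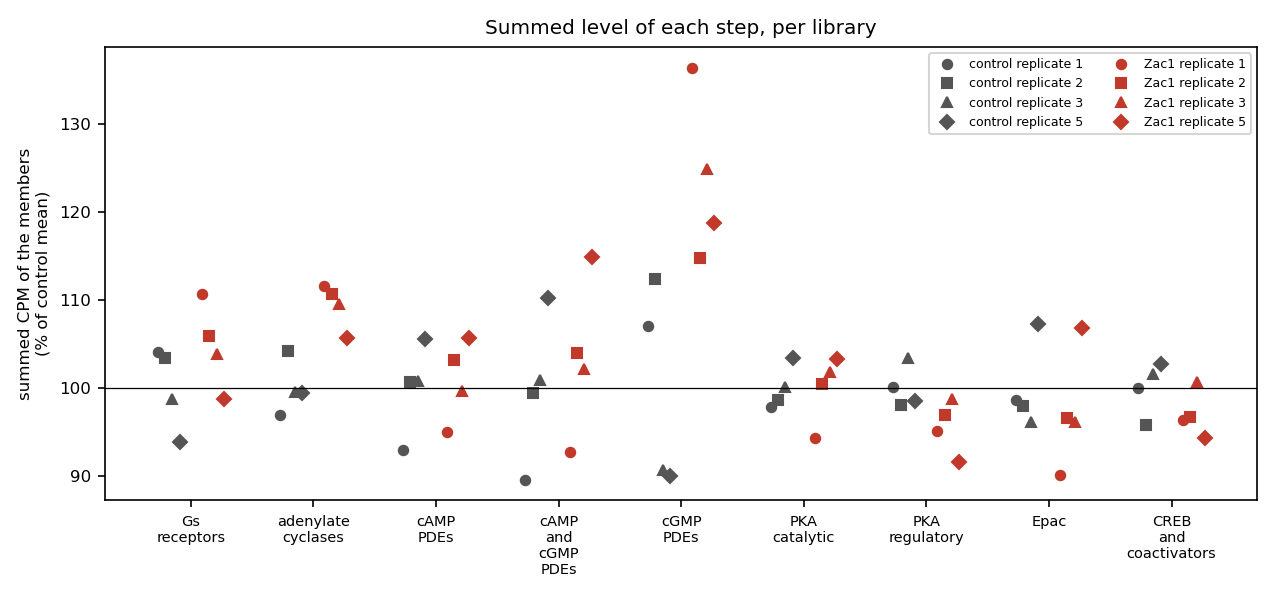
Summed CPM of the members of each step in every library, as a percentage of the control mean (y axis, not starting at 0), for control (grey) and Zac1 (red); symbols give the replicate number. The adenylate cyclase sums separate the groups, the cGMP phosphodiesterase sums do so too at a control mean of 4.40 CPM, and other steps overlap.

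Libraries numbered 1 and 5 were often the highest or lowest in both groups, among these genes and among all tested genes. The library numbered 5 was the highest of its group in both groups for 11 of the 42 genes and the lowest in both for 5, together 38.1%, where the same held for 33.7% of all tested genes. For the library numbered 1 the share was 35.7%, against 23.7% of all tested genes. Numbers 2 and 3 gave 7.14% and 14.3%, against 9.20% and 14.2% of all tested genes. Without both libraries numbered 5, Adcy3, Adcy5, Adcy7 and Pde4a were still called (edgeR adjusted p = 0.0370, 0.0498, 0.00107 and 0.00155). The number of called genes was 2 without control library 1 or Zac1 library 1, when Adcy3 and Adcy5 lost their calls, and 3 or 4 without any other library.

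Promoter sequences are shown for the 4 called genes, since all 4 were called higher and Zac1 and CREB both bind DNA. A shared cause was not tested. They are RefSeq promoters of the GRCm38.p6 build, from 250 bases before to 50 bases after an annotated start, and 38 of the 47 genes matched by gene ID. Adcy3, Adcy7 and Pde4a have more than 1 annotated start, and the promoter with a motif is shown. Capitals mark matches to GGGGCCCC, a GC-rich element reported to bind Zac1, or to the CRE core TGACG, read as CGTCA from the other strand.

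Adcy3 (GRCm38.p6, chr12:4133147-4133446, + strand): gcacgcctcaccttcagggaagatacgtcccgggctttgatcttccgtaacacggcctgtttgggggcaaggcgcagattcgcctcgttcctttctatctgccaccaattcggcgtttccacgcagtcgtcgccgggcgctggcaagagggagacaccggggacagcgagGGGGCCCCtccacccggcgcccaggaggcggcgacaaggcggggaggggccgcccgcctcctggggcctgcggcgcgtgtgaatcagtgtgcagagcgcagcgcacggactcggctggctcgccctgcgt
Adcy5 (GRCm38.p6, chr16:35154614-35154913, + strand): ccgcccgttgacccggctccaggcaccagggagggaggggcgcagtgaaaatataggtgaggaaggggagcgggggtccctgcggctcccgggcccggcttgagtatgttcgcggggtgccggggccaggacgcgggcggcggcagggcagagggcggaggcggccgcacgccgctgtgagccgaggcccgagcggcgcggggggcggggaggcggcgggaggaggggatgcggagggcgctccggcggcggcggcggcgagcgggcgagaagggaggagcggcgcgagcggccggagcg
Adcy7 (GRCm38.p6, chr8:88282742-88283041, + strand): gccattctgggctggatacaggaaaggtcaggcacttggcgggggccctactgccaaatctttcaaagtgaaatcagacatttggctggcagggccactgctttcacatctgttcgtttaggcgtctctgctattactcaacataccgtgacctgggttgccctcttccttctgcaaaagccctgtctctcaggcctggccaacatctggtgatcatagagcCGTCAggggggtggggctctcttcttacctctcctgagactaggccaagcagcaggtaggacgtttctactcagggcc
Pde4a (GRCm38.p6, chr9:21183851-21184150, + strand): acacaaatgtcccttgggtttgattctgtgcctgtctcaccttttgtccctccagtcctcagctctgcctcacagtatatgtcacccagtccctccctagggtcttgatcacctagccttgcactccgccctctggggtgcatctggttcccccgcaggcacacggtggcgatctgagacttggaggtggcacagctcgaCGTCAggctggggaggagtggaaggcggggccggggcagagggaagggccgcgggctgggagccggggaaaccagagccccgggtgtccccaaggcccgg

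Adcy3 held GGGGCCCC 80 bases before its start. Adcy7 and Pde4a each held the core CGTCA, at 28 and 50 bases before the start, and the single promoter of Adcy5, with 79% G and C, held no match. The median G and C content was 52.7% over all promoters and 57.3% over promoters of tested members. The Adcy3 promoter with GGGGCCCC had 68.7%. Both strands were searched in 32851 promoters of 300 bases: GGGGCCCC was found in 1.08% of all promoters and in 2 of 70 promoters of tested members (Adcy3 and Vipr1). The full CRE TGACGTCA, which contains the core, was found in 1.79% of all promoters and in 2 of the 70, both of Prkar1a. TGACG was found in 20.8% of all promoters and in 17 of the 70 (24.3%), and in 2 of the 9 promoters of called genes (22.2%). Counted by gene, 15 of the 33 tested members with a promoter held TGACG in any of them (45.5%), against 6228 of 27025 genes (23.0%), but the 33 members have 70 promoters, while the 27025 genes have 32851. A match is a description of these letters in these windows and shows no binding.

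Other genes of the pathway were taken from 6 lists of textbook members, of which 148 genes outside the 47 were tested. Of these, 1 was called higher and none lower, where 2.15% of all tested genes were called higher and 0.0349% lower. Their median log2 change was 0.01. It was Ppp1r1b, which encodes DARPP-32, a PKA substrate that inhibits protein phosphatase 1. Ppp1r1b stood at 0.384 ± 0.109 CPM in controls and 1.08 ± 0.218 CPM with Zac1 (2.77-fold, log2 1.47 ± 0.26, edgeR adjusted p = 0.00509), and it was called in all 15 alternatives in which it was tested. Its control library 5 was under the filter's limit, and the other control libraries were over it. Ppp1r1b therefore passed the filter only with the Zac1 libraries, where it is high, and its p is a description. It was the only called gene of 22 tested PKA anchors and inhibitors.

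Among 28 tested genes that respond to cAMP none was called, with 5 higher and 0 lower at an unadjusted p under 0.05, where 5.65% of all tested genes were higher. Ccnd1, cyclin D1, came closest, at 0 to 8 counts per control library and 12 to 31 per Zac1 library (log2 2.23 ± 0.55, edgeR adjusted p = 0.0541). No control library of Ccnd1 was over the filter's limit, so it was tested only through the Zac1 libraries, where it is high, and its p in any tool is a description. The adjusted p was 0.0465 in limma-voom and 0.0260 in DESeq2. Fos, an immediate early CREB target, gave 0.31 ± 0.10 (edgeR adjusted p = 0.244). Of 26 further effectors and phosphodiesterases none was called, with 3 higher and 0 lower at an unadjusted p under 0.05; limma-voom called 0 and DESeq2 called 1, Rap1gap. This gene, whose product switches off the Epac target Rap1, had the smallest p in edgeR too (log2 0.28 ± 0.08, edgeR adjusted p = 0.103).

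G proteins and their regulators gave 0 called of 37 in edgeR, DESeq2 and limma-voom, with 1 at an unadjusted p under 0.05, the receptor kinase gene Adrbk1 (log2 0.11 ± 0.05). Relatives of CREB and its coactivators gave 0 of 18 in the same tools, with 1 at an unadjusted p under 0.05, Creb3l1 (log2 0.51 ± 0.20). Over all tested genes edgeR called 2.15% higher, and 5.65% were higher at an unadjusted p under 0.05. Of 18 tested further receptors 0 were called in edgeR and limma-voom, with 0 at an unadjusted p under 0.05, and Galr3, a Gi-coupled galanin receptor, had the smallest p (log2 -0.60 ± 0.33). In DESeq2, and in edgeR without the filter on low counts, 2 further receptors were called that the filter had removed. They came from a list of 55 receptors, 5 of them with no count in any library. Over all genes DESeq2 called 394 of 19898, and edgeR without the filter called 426 of 19900. Drd1a, the Gs-coupled dopamine D1 receptor, had 0 counts in all control libraries and 5 to 8 in each Zac1 library, which makes it at least 7.10-fold higher if 3 counts are taken as the limit for all control libraries together. Pth1r, the parathyroid hormone receptor, had 2 counts in all control libraries together and 53 in the Zac1 libraries, a ratio of 21.7 with a 95% counting interval of 5.72 to 184.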

How the data were processed

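The authors deposited counts of reads per gene, as whole numbers and not normalized, for 8 libraries. Per the submitters' processing notes, the mouse build was mm9 and the tools included HTSeq 0.6.1p1, TopHat2 2.1.1, Bowtie2 2.2.8, bcl2fastq 2.17 and FastQC. The gene annotation and the strand setting of the counting are not stated in the sources used. Libraries were made with a stranded mRNA kit, per the labels' protocols. Each column matched 1 sample title.

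From the counts, edgeR 4.0.16 (R 4.3.3) with filterByExpr, TMM scaling and a robust quasi-likelihood fit on the group tested Zac1 against control, with Benjamini-Hochberg adjustment over all 14331 tested genes. The F statistic and the fold change gave the SE. Alternatives were other scalings and filters, DESeq2 1.42.0, limma-voom 3.58.1, a replicate block and libraries left out. The steps were tested on simulated data. The 47 genes and the lists of pathway genes and markers were chosen with earlier results of these data known. The genes named are all 47 members, Plagl1, and of each other list the called genes or the gene with the smallest p; Fos, Drd1a, Pth1r, Cenpo and the markers named were chosen after their values were seen. Exon lengths and overlaps come from GENCODE M21 (GRCm38), which may differ from the annotation counted, so values per kilobase are approximate. Counting intervals (95%) and the limit of 3 counts cover counting error only.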

Additional observations from a re-analysis of the deposited data

Results flagged for a closer look

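In 4 of 84 groups of 4 libraries (42 tested genes in each of 2 groups), 1 library stood far from the other 3 by Dixon's test at the 95% level, and chance flags about 1 group in 20. Crem in control library 5 was at 40.6 CPM, with the other controls between 35.9 and 36.1 CPM. Prkacb in the same library was at 162.3 CPM, with the others between 149.5 and 150.4 CPM. Pde8b in Zac1 library 3 was at 1.88 CPM, below the others at 2.13 to 2.18 CPM. Crtc2 in Zac1 library 1 was at 38.6 CPM, above the others at 33.5 to 34.1 CPM. None of these 4 genes was called.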

How the results depend on the processing

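The number of called members of the cAMP list was 4 with RLE scaling, library totals alone, no filter, DESeq2 and without both libraries numbered 5, 3 with limma-voom or a mean of at least 50 counts, and 2 to 4 when 1 library was left out. A mean of at least 50 counts left 99 of 313 calls over all genes, 99 higher and 0 lower, and 0 in the other pathway lists. This filter removes low genes, Ppp1r1b among them. Adcy5 stayed in the test and still lost its call (edgeR adjusted p = 0.0974), and the cause of the drop was not tested. Calls in those lists numbered 2 with library totals alone and in limma-voom, 5 without a filter and in DESeq2, and 1 to 3 with 1 library left out; the cause was not tested. With 1 library left out, genes called lower numbered 1 to 5. Signs turned only in changes that were not called: Adra2a, at -0.04, gave 0.027 without both libraries numbered 5 and -0.087 to 0.056 with 1 library left out. In the same leave-outs the log2 ranges were -0.0059 to 0.089 for Adcy9, -0.0099 to 0.14 for Pde1c, -0.00030 to 0.21 for Pde3a, -0.0087 to 0.049 for Pde3b, -0.066 to 0.00096 for Pde4b, -0.0072 to 0.11 for Pde10a, -0.079 to 0.0051 for Rapgef4 and -0.10 to 0.13 for Gipr.

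A fit with a replicate block called 628 genes, 512 higher and 116 lower, so that 81.5% of calls were higher against 98.4% without the block. It called 5 members, the 4 above and Adcy6 (edgeR adjusted p = 0.0447), and 5 genes of the other lists (Ppp1r1b, Ccnd1, Fos, Hcn4 and Rap1gap). The numbers did not establish pairs: over 12219 genes, deviations from the group means correlated by 0.50, 0.0774, 0.333 and 0.555 for numbers 1, 2, 3 and 5, and control library 2 correlated best with Zac1 library 3 (0.203).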
